A study of Arabidopsis thaliana with 6 samples.

Results

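PDC2 (AT5G54960), a pyruvate decarboxylase gene of ethanolic fermentation, and the aldehyde dehydrogenase genes (ALDH) were followed in Arabidopsis thaliana shoots that express the R2R3-MYB transcription factor MYB112 when given β-estradiol. Members were taken from the platform annotation as PDC2 and every gene whose symbol begins with ALDH and a digit, provided that its probe set reached 3.56 on the log2 scale on at least 2 of the 6 arrays. This gave 9 genes, PDC2 and 8 ALDH genes, of 7811 named genes above that value. Each member had 1 probe set, and 9 of 9 named candidates passed, all on 6 of 6 arrays. The lowest member value was 7.22, for ALDH22A1, so no member lay near the limit and none lay just outside it.

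Pyruvate decarboxylase removes carbon dioxide from pyruvate and so yields acetaldehyde, which alcohol dehydrogenase reduces to ethanol. This keeps glycolysis supplied with NAD+ when respiration is short of oxygen. Acetaldehyde can instead be oxidised to acetate by aldehyde dehydrogenases, a superfamily of NAD(P)+-dependent enzymes that turn aldehydes into carboxylic acids. In plants the superfamily also serves amino acid breakdown, phenylpropanoid synthesis, the supply of NADPH and the removal of reactive aldehydes formed under drought, salt or oxidative stress. The RefSeq table lists 14 ALDH genes, of which 8 had a probe set of their own in the annotation used. ALDH2B4, ALDH2B7, ALDH3H1, ALDH3I1, ALDH5F1 and ALDH12A1 were not analysed here. The mitochondrial enzymes that oxidise acetaldehyde, ALDH2B4 and ALDH2B7, are among those 6.

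All seedlings were 2 weeks old, of the Col-0 background, and carried the inducible construct MYB112-IOE of line 1. Shoot RNA was hybridised after 3 h of 10 µM estradiol (n = 1) or of DMSO (n = 1), and after 5 h of estradiol (n = 2) or of DMSO (n = 2). A single transgenic line was used, and plants lacking the construct were not analysed here, so an effect of estradiol itself and one of MYB112 cannot be told apart. Samples carry biological replicate numbers, but separate flasks are not stated, and the p-values then reflect only the variation among these samples, which may be technical. The level of MYB112 was not analysed here, since the annotation used names none of the probe sets after it.

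The deposited values are normalised log2 expression, with base 2 read from their range of 2.1 to 15.35, on which all fold values rest. Each estradiol array and the DMSO array of the same time and number had the same lowest value (2.1, 2.14 or 2.16), and arrays correlated at 0.994 to 0.998 within such a pair and at 0.957 to 0.968 between pairs. The 3 pairs were therefore read as normalised separately, so differences were taken within pairs. Where the text says whether the 5 h treatments overlap, it sets levels from separately normalised pairs side by side, as a description. Of 7 leaf mesophyll markers, RCA and LHCB4.1 had a named probe set, at 13.46 to 13.84 and 12.72 to 13.48. Of 8 root markers, EXPA7 and EXPA18 had one, at 2.96 or less on every array, under the filter.

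PDC2 had values of 10.12 with estradiol and 10.48 with DMSO at 3 h. At 5 h it had 8.63 and 9.22 with estradiol, against 9.23 and 10.03 with DMSO in the pairs of replicates 1 and 2. The estradiol array was the lower one in every pair. At 5 h the treatments did not overlap, but only by 0.01, since the estradiol array of replicate 2 nearly met the DMSO array of replicate 1.

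The estradiol minus DMSO difference of PDC2 was −0.36 at 3 h, and −0.60 and −0.81 in replicates 1 and 2 at 5 h. In each pair it was lower than that of any of the 8 ALDH genes. The mean over the pairs was −0.59 (SD 0.23, n = 3 pairs), a 1.51-fold lower level with estradiol. Among the 14520 probe sets above the filter, the PDC2 difference stood at percentile 6.56 in the 3 h pair and at percentiles 2.33 and 3.35 in the 5 h pairs. Because bulk shoots were measured, fewer cells expressing a gene and less of its RNA per cell cannot be told apart.

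At 5 h, the comparison with replicates, the PDC2 difference was −0.705 (SE 0.37, 95% interval −1.69 to 0.28, limma adjusted p = 1, with 2 arrays per treatment). With the pair as a block the interval was −1.02 to −0.39 (limma unadjusted p = 0.00752, adjusted p = 0.58). Over both times it was −0.59 (SE 0.28, limma adjusted p = 1, 95% interval −1.29 to 0.11). With the pair as a block the interval was −0.90 to −0.28 (limma unadjusted p = 0.00725, adjusted p = 0.50). PDC2 thus did not pass in any of these fits. The difference between the 5 h and 3 h effects was −0.345 (SE 0.64, limma adjusted p = 1; 0.988 with the block), with an interval of −2.10 to 1.41 that holds both signs.

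**Figure D1:**
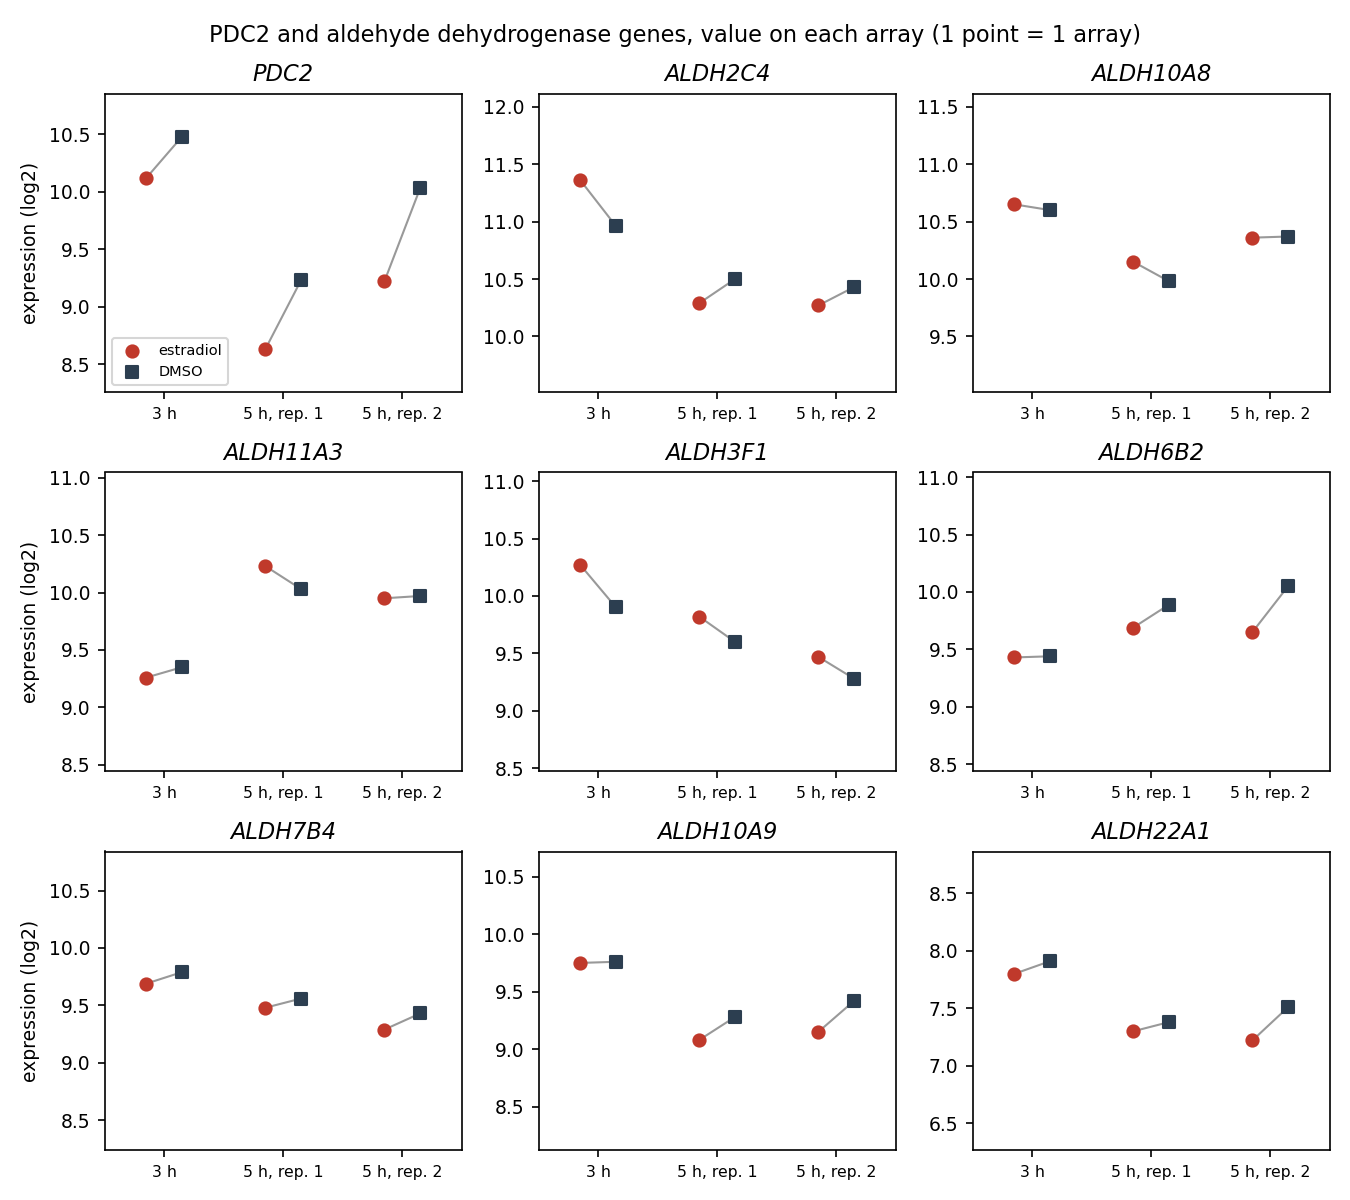
Expression (log2, vertical axis, with the same span in every panel) of the 9 members on each array, with estradiol arrays as red circles and DMSO arrays as dark squares, joined within each pair. PDC2, ALDH6B2, ALDH7B4, ALDH10A9 and ALDH22A1 lie below their DMSO array in all 3 pairs, ALDH3F1 lies above it in all 3, and the lines of ALDH2C4, ALDH10A8 and ALDH11A3 differ in direction between pairs.

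Of the 9 members, 0 passed in the limma comparison at 5 h, where 0.0071% of 14078 probe sets were called, 0 passed over both times, where 0.00689% of 14520 were called, and 0 passed for the difference between times, where 0% were called. Unadjusted p-values under 0.05 were found for 0, 0 and 1 members in these fits, and for 1.15%, 1.9% and 0.172% of all probe sets. In the blocked fits 0 members and 0% of probe sets were called in each comparison. Unadjusted p-values under 0.05 were then found for PDC2 at 5 h (8.29% of all probe sets), for PDC2 and ALDH3F1 over both times (9.75%) and for ALDH2C4 between times (2.93%). The fits without the block carry the differences between pairs in their residual spread. Their lack of calls does not show that the members stayed the same.

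In direction, 5 of the 9 members (55.6%) were lower with estradiol in all 3 pairs, where 17.1% of all probe sets above the filter were. These were PDC2, ALDH6B2, ALDH7B4, ALDH10A9 and ALDH22A1. ALDH3F1 alone, 11.1% of the members, was higher in all 3, against 12.1% of all probe sets. Probe sets with a difference of exactly 0 in a pair cannot count in either direction, which lowers both shares over all probe sets. Of the 14520, they numbered 2065 at 3 h, and 1886 and 565 in replicates 1 and 2 at 5 h, against 0 of the members. With the arrays centred on their medians or quantile-normalised, 3 members were lower in all 3 pairs, against 18.2% and 16.9% of all probe sets. ALDH6B2 and ALDH10A9 then left the count, because their differences of −0.01 at 3 h became 0.00 after centring and 0.01 and 0.03 after quantile normalisation. The median of the 8 ALDH differences was −0.01 at 3 h, −0.08 in replicate 1 and −0.15 in replicate 2 at 5 h, beside −0.01, 0.00 and −0.04 for all probe sets. Of the 24 ALDH differences (8 genes, 3 pairs), 21 were no larger than 0.3 in size, and 0 of 9 members differed by 2-fold or more in any pair. Of all probe sets, 0.675% did at 3 h, and 1.55% and 3.13% in replicates 1 and 2 at 5 h.

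**Figure D2:**
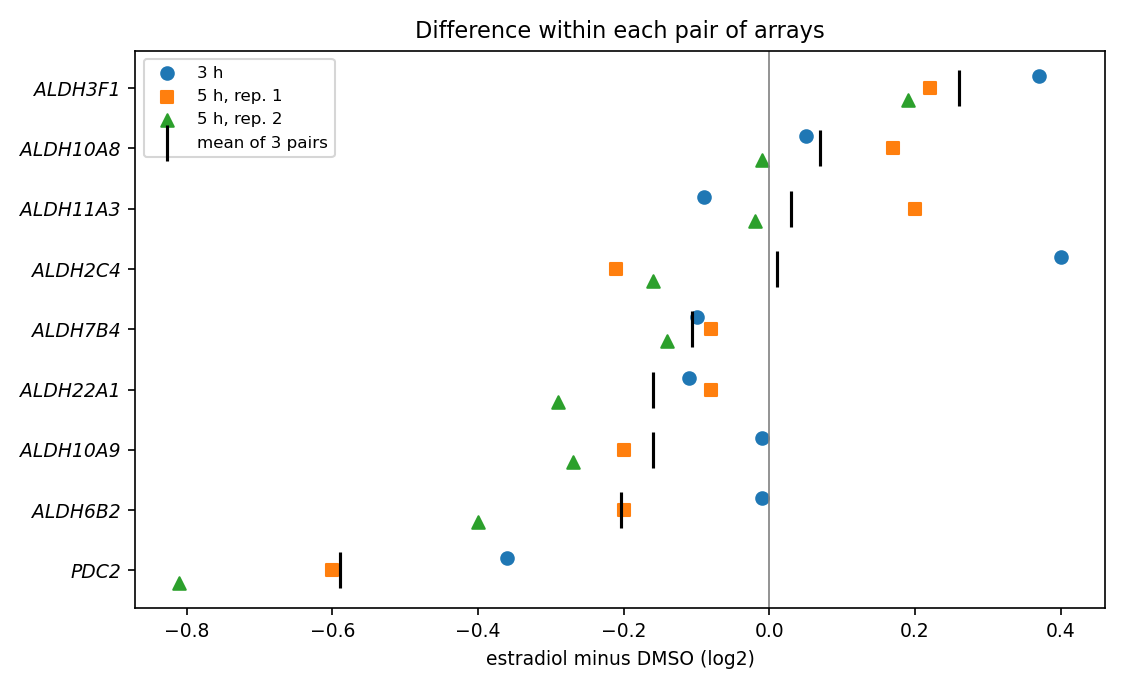
Estradiol minus DMSO difference (log2, horizontal axis) of each member in the 3 h pair (circles), in replicate 1 (squares) and replicate 2 (triangles) at 5 h, with the mean of the 3 pairs as a bar. In each pair PDC2 has the lowest difference of the 9, at −0.36, −0.60 and −0.81, and ALDH2C4 has its 3 h value at 0.40 and its 5 h values at −0.21 and −0.16.

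ALDH2C4 (AT3G24503) oxidises sinapaldehyde and coniferaldehyde to sinapic and ferulic acid in the phenylpropanoid pathway. It had 11.36 with estradiol and 10.96 with DMSO at 3 h, and 10.29 and 10.27 with estradiol against 10.50 and 10.43 with DMSO at 5 h. Its estradiol array was thus the higher one at 3 h, with a difference of 0.40, and the lower one in both 5 h pairs, with −0.21 and −0.16. The difference between the 5 h and 3 h effects was −0.585 (SE 0.21, limma unadjusted p = 0.048, adjusted p = 1) and did not pass. In the blocked fit the unadjusted p was 0.0155 and the adjusted p 0.988. Only the 5 h arrays inform the residual spread of that test, which assumes that single 3 h arrays vary to the same extent. At 3 h the ALDH2C4 difference was the highest among the members, at percentile 96.5 of all probe sets, with no replicate. HCT, another phenylpropanoid enzyme gene, was at −0.20, −0.36 and −0.28 in the 3 pairs, and the other 11 genes of the sinapate and phenylpropanoid list had no named probe set of their own here.

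ALDH3F1 (AT4G36250) belongs to family 3, whose relatives remove aldehydes formed by lipid peroxidation. It had 10.27 with estradiol and 9.90 with DMSO at 3 h, and 9.82 and 9.47 with estradiol against 9.60 and 9.28 with DMSO at 5 h. The estradiol array was the higher one in every pair, by 0.37, 0.22 and 0.19, although the 5 h treatments overlapped across pairs. The mean difference was 0.26 (SD 0.10, n = 3 pairs), a level 1.2 times that with DMSO, at percentile 92.7 of all probe sets. Over both times limma gave an SE of 0.15 and an adjusted p of 1, with an interval of −0.12 to 0.64. With the pair as a block the interval was 0.09 to 0.43 (limma unadjusted p = 0.0153, adjusted p = 0.50).

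ALDH7B4 (AT1G54100), an antiquitin-like enzyme known to be induced by dehydration, salt and abscisic acid, gave the most even differences of the members. Its values were 9.69 with estradiol and 9.79 with DMSO at 3 h, and 9.48 and 9.29 with estradiol against 9.56 and 9.43 with DMSO at 5 h. The 3 differences were −0.10, −0.08 and −0.14 (mean −0.11, SD 0.03, n = 3 pairs), with all estradiol arrays slightly lower than their partners. Over both times the interval was −0.37 to 0.15, and −0.24 to 0.02 with the pair as a block (limma adjusted p = 1 and 0.519). Of 15 genes of the abscisic acid and dehydration list, 3 had a named probe set above the filter. COR47 was at 0.25, 0.42 and 0.61, LTI30 at −0.21, 0.13 and −0.68, and COR15A at −0.05, −0.07 and −0.78. They went in different directions, and limma called 0 of them in each comparison, where at most 0.0071% of all probe sets were called.

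ALDH10A8 (AT1G74920) and ALDH10A9 (AT3G48170) encode the betaine aldehyde dehydrogenases of Arabidopsis, which act on aminoaldehydes in plastids and in peroxisomes. ALDH10A8 had 10.65 with estradiol and 10.60 with DMSO at 3 h, and 10.15 and 10.36 with estradiol against 9.98 and 10.37 with DMSO at 5 h. Its differences of 0.05, 0.17 and −0.01 averaged 0.07 (SD 0.09, n = 3 pairs), and the 5 h treatments overlapped. ALDH10A9 had 9.75 with estradiol and 9.76 with DMSO at 3 h, and 9.08 and 9.15 with estradiol against 9.28 and 9.42 with DMSO at 5 h. There the 3 h arrays were nearly equal and both 5 h estradiol arrays lay below both DMSO arrays, with differences of −0.01, −0.20 and −0.27. At 5 h its limma difference was −0.235 (SE 0.15, adjusted p = 1; 0.58 with the block, where the interval ran from −0.47 to 0.003).

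ALDH6B2 (AT2G14170) is the methylmalonate semialdehyde dehydrogenase of mitochondrial valine breakdown. It had 9.43 with estradiol and 9.44 with DMSO at 3 h, and 9.69 and 9.65 with estradiol against 9.89 and 10.05 with DMSO at 5 h. The 3 h arrays were again nearly equal, and the 5 h treatments did not overlap, with differences of −0.20 and −0.40. At 5 h limma gave −0.30 (SE 0.15, adjusted p = 1), with an interval of −0.69 to 0.09, or −0.60 to 0.002 with the block (limma unadjusted p = 0.0506, adjusted p = 0.58). Of 11 genes listed for branched-chain amino acid breakdown, 4 had a named probe set above the filter. Their median differences were 0.035 at 3 h, and −0.09 and −0.18 in the 5 h pairs. MCCA, a subunit of methylcrotonyl-CoA carboxylase, was lowest, at −0.50, −0.74 and −0.12, and MCCB, the other subunit, was highest, at 0.03, 0.13 and 0.06. Limma called 0 of the 4 in each comparison, where at most 0.0071% of all probe sets were called.

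ALDH11A3 (AT2G24270) is the non-phosphorylating glyceraldehyde-3-phosphate dehydrogenase, which bypasses an ATP-yielding step of glycolysis and makes NADPH. It had 9.26 with estradiol and 9.35 with DMSO at 3 h, and 10.23 and 9.95 with estradiol against 10.03 and 9.97 with DMSO at 5 h. The treatments overlapped at 5 h, and the differences of −0.09, 0.20 and −0.02 had no common sign. ALDH22A1 (AT3G66658), of a plant family with few characterised substrates, had 7.80 with estradiol and 7.91 with DMSO at 3 h. At 5 h it had 7.30 and 7.22 with estradiol, against 7.38 and 7.51 with DMSO. Every estradiol array of ALDH22A1 was lower than its partner, with differences of −0.11, −0.08 and −0.29, and the 5 h treatments did not overlap. Its mean of −0.16 (SD 0.11, n = 3 pairs) did not pass over both times (limma adjusted p = 1; 0.538 with the block). In all, 5 of 9 members (55.6%) had both 5 h estradiol arrays below both DMSO arrays and 0 had them above, beside 9.61% and 8.49% of all probe sets. These were PDC2, ALDH2C4, ALDH6B2, ALDH10A9 and ALDH22A1, and the count sets arrays of separately normalised pairs side by side. Probe sets with a difference of exactly 0 in a 5 h pair always overlap, which lowers the shares over all probe sets.

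**Figure D3:**
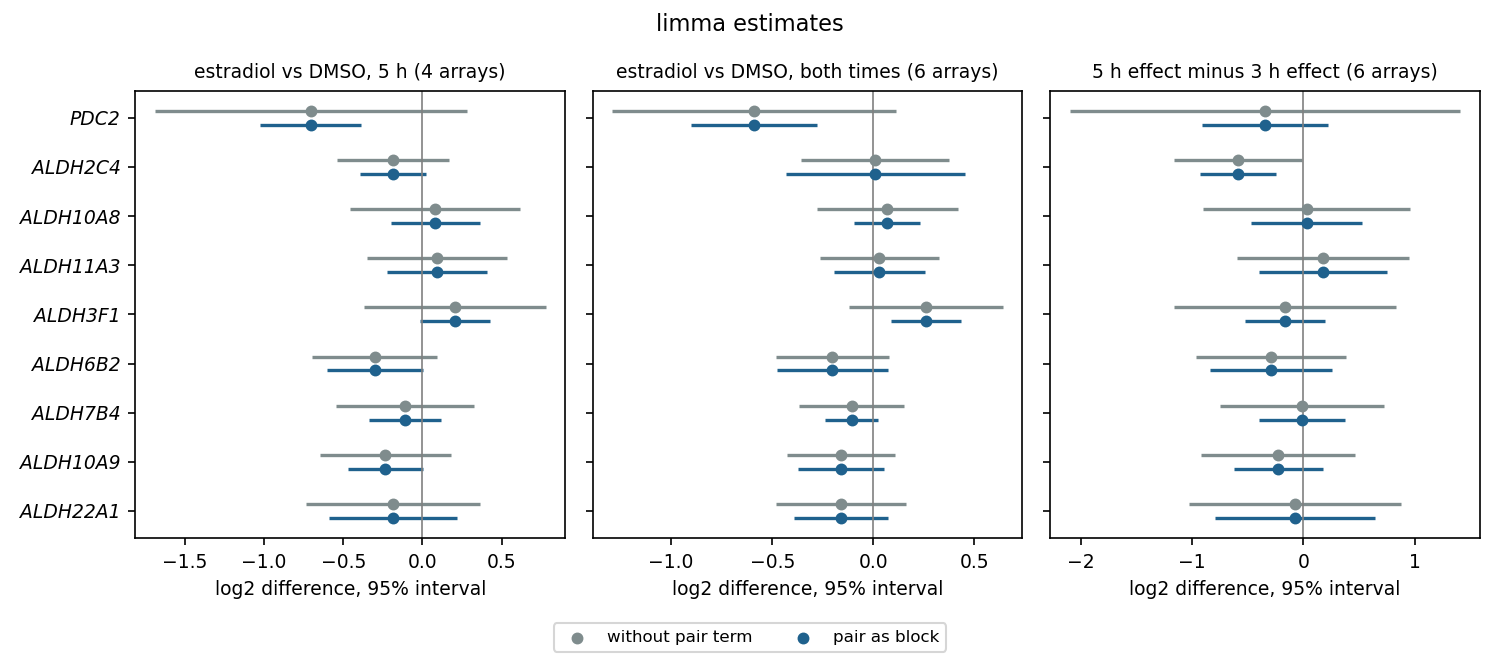
Limma estimates (points) and 95% intervals (lines) of the log2 difference for each member, in panels for estradiol against DMSO at 5 h, over both times, and for the 5 h effect minus the 3 h effect, without a pair term (grey) and with the pair as a block (blue). The blocked intervals leave out 0 for PDC2 at 5 h and over both times, for ALDH3F1 over both times and for ALDH2C4 between times, and the smallest adjusted p in the figure is 0.50.

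**Figure D4:**
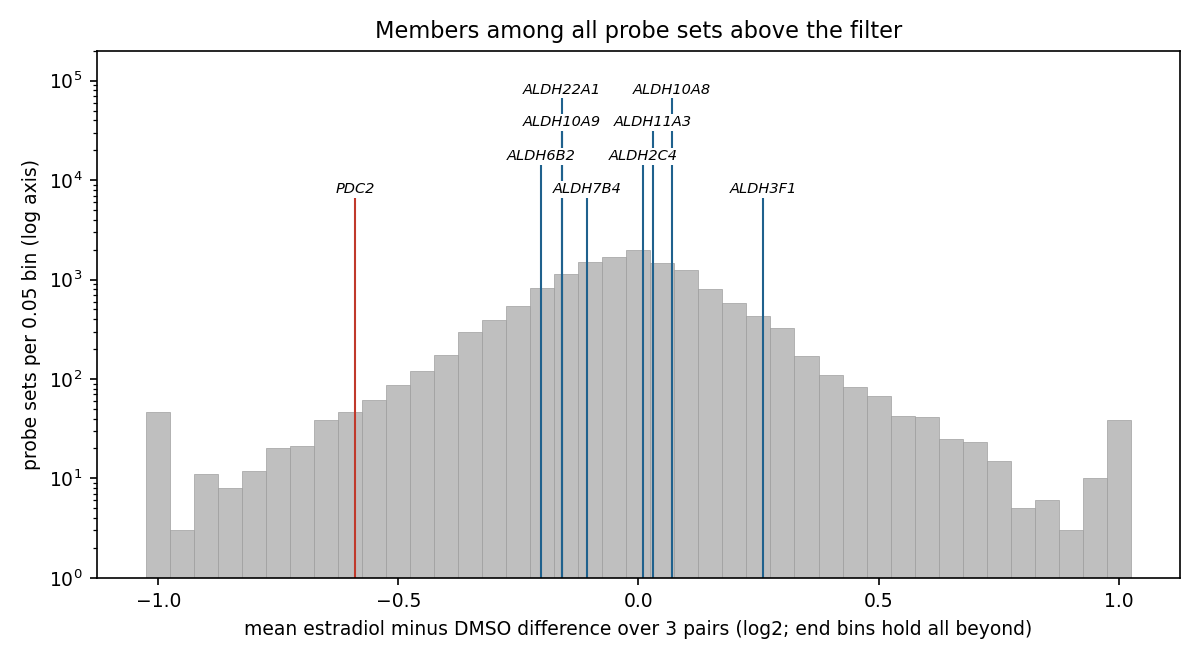
Number of probe sets (vertical log axis) by mean estradiol minus DMSO difference over the 3 pairs (log2, bins of 0.05, end bins holding all beyond), with the members as vertical lines. PDC2 stands at −0.59, at percentile 1.34 of 14520 probe sets, and the 8 ALDH genes lie between −0.20 (ALDH6B2) and 0.26 (ALDH3F1), at percentiles 15.4 to 92.7.

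The enzymes around PDC2 were described from lists drawn up from general knowledge. Of 7 other fermentation genes only AT4G17260, listed as a lactate dehydrogenase gene, had a probe set of its own, so PDC1 and ADH1 were not analysed here. AT4G17260 had 8.13 with estradiol and 8.74 with DMSO at 3 h, and 6.72 and 7.43 with estradiol against 6.75 and 7.79 with DMSO at 5 h. Its differences were −0.61, −0.03 and −0.36, lower in all 3 pairs but near 0 in replicate 1 at 5 h (limma adjusted p = 1 at 5 h and over both times).

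Of 22 genes of sucrose breakdown and glycolysis, 5 were measured above the filter. Their median difference was −0.16 over the pairs, beside −0.02 for all probe sets. Of these 5, 4 were lower in 3 of 3 pairs, where 17.1% of all probe sets were. TPI, the triose phosphate isomerase gene, was the lowest by mean, level with AT5G08570 and AT5G56350, and GAPC2, a glyceraldehyde-3-phosphate dehydrogenase gene, the highest. TPI differed by −0.18, −0.15 and −0.16 and GAPC2 by −0.01, −0.09 and −0.01. Of 14 genes of pyruvate dehydrogenase and acetate activation, 6 were measured, with a median of −0.035. LTA3, an acetyltransferase subunit gene of the mitochondrial complex, was the highest at 0.14, 0.09 and 0.05, and AT1G54220, listed as another such subunit gene, the lowest at −0.18, 0.09 and −0.21. ACS, whose product activates acetate to acetyl-CoA, was at 0.11, −0.02 and −0.21. Limma called 0 genes of these lists in each comparison, with and without the block, where at most 0.0071% of all probe sets were called.

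The low-oxygen response list, which leaves out PDC2, was drawn up with values of several of its genes already known and is no independent support. All 14 of its measured members had a negative mean difference, where 54.3% of all probe sets did. Of the list, 10 were lower in 3 of 3 pairs, where 17.1% of all probe sets were. Its median was −2.165 at 3 h, −0.935 in replicate 1 and −1.40 in replicate 2 at 5 h, beside −0.36, −0.60 and −0.81 for PDC2. In replicate 1 at 5 h AT2G17850, AT4G17670 and AT5G10040 had 3.27 or less with both treatments, under the filter there. The list's mean differences ranged from −2.36 for AT3G10040 (HRA1, which attenuates the low-oxygen response) to −0.45 for AT4G17670. The PDC2 mean of −0.59 lay near the upper end of that range. Limma called 0 of the 14 in each comparison, where at most 0.0071% of all probe sets were called. With so few calls anywhere, that 0 says little about the list. Whether oxygen supply differed between flasks was not tested.

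The remaining lists near the ALDH genes held few measured members. DELTA-OAT, an ornithine aminotransferase gene of proline metabolism, was at 0.22, 0.21 and −0.27, the single member above the filter of 6. AER, an alkenal reductase that removes reactive aldehydes by another route, was at 0.13, 0.29 and −0.77, the single one of 9 aldehyde oxidase and reductase genes. Both had opposite signs in the 5 h pairs, and limma called neither, where at most 0.0071% of all probe sets were called. Of 6 genes of the GABA shunt, 0 had a named probe set. Of 7 genes listed for the ALDH superfamily under other symbols, 3 had one, and these were the members ALDH6B2, ALDH11A3 and ALDH22A1 described above. Of 5 guard cell and stomatal lineage markers 3 had a named probe set, with MUTE under the filter. FMA differed by 0.07, −0.38 and −1.17, and SPCH by −0.04, 0.03 and −1.29. Both differed most in replicate 2 at 5 h, where their estradiol values of 3.41 and 3.17 lay under the filter. That pair held the widest differences over all probe sets too (SD 0.41, against 0.26 at 3 h and 0.33 in replicate 1). PDC2, ALDH6B2, ALDH7B4, ALDH10A9 and ALDH22A1 had their largest difference in size there, and ALDH2C4, ALDH3F1, ALDH10A8 and ALDH11A3 their smallest. The part of cell composition in these results was not tested.

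**Figure D5:**
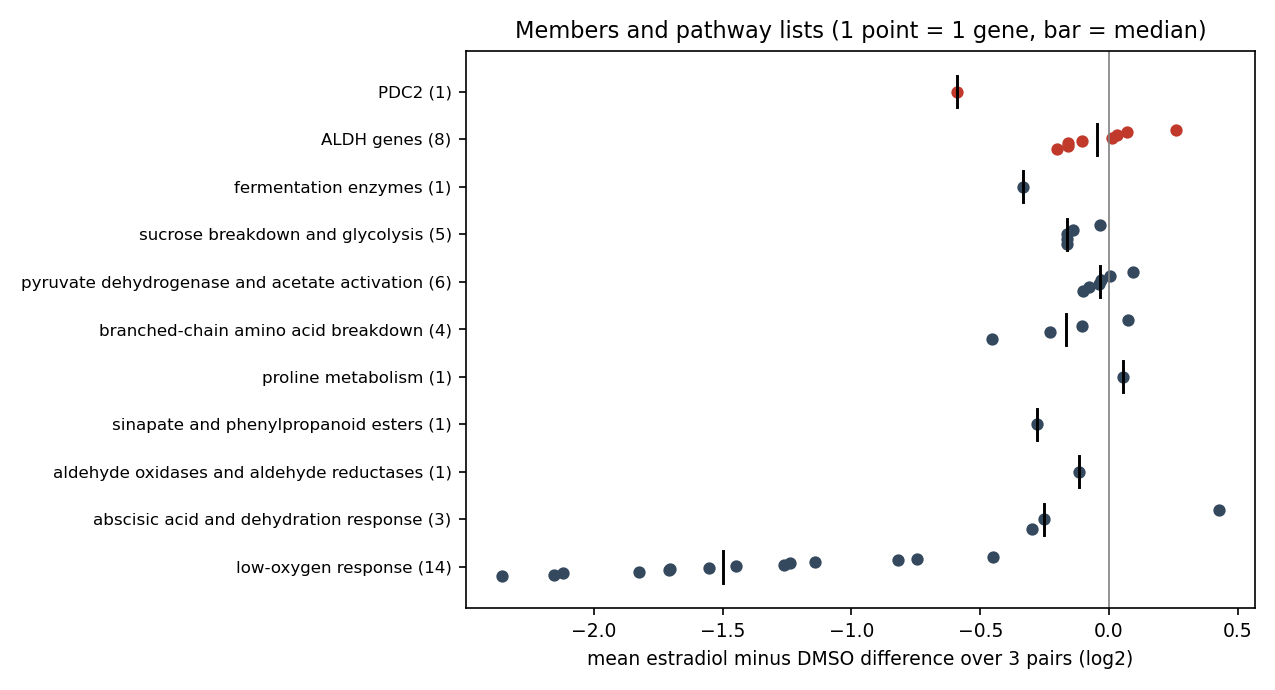
Mean estradiol minus DMSO difference over the 3 pairs (log2, horizontal axis) of PDC2, the ALDH genes and the genes of each pathway list above the filter, with 1 point per gene, a bar at the median and the number of genes in brackets. The ALDH genes lie between −0.20 and 0.26. The glycolysis list lies below 0, with a median of −0.16, and the pyruvate dehydrogenase list has a median of −0.035. The low-oxygen list runs from −2.36 to −0.45, and PDC2 lies at −0.59.

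The genes most like PDC2 were taken as those with the smallest root mean square distance between their 3 pair differences and those of PDC2, among 7810 other named genes above the filter. They were AT1G30820 (distance 0.05), AT1G24530 (0.07), AT3G07860 (0.08), APS3, an ATP sulfurylase gene (0.08), and PANB2, a ketopantoate hydroxymethyltransferase gene (0.09). AT1G30820 differed by −0.37, −0.52 and −0.78 and APS3 by −0.34, −0.74 and −0.85. Among the ALDH genes ALDH6B2 was nearest to PDC2, at distance 0.39 and rank 564, and ALDH3F1 was the farthest, at distance 0.86 and rank 6875. This likeness rests on 3 values per gene.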

How the data were processed

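The authors deposited 1 normalised log2 value per probe set for 6 Affymetrix ATH1 arrays. Per the submitters' processing notes GCRMA and RMA were used, with no version or role stated. Base 2 was read from the range of the values. Of 22810 probe sets, 64 controls were left out. The platform annotation gave 1 gene for 13513, several for 503 and none for 8730, and 13436 were matched to the RefSeq table of TAIR10.1 by gene number. No coordinates are printed, because the build of the array annotation is not given.

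Fits used R 4.3.3 and limma 3.58.1 (lmFit, eBayes with trend, two-sided, Benjamini-Hochberg over all probe sets tested, threshold 0.05), with code tested on simulated data. Probe sets at or above the 40th percentile of the table (3.56) on at least 2 arrays of a fit were kept, 14078 at 5 h (4 arrays) and 14520 otherwise. The both-times fit had time as a covariate, and the difference between times was an interaction contrast. Named genes were all members, the fermentation list in full, the lowest and highest mean of each list, and the 5 nearest to PDC2, with ACS, LTI30, AT5G08570, AT5G56350 and a few low-oxygen genes and cell markers named outside this rule after their values were seen. The members and lists were chosen with earlier results of these data known.

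Same-numbered arrays deviated together from their treatment means over both times (correlations 0.94, 0.927 and 0.907 over probe sets in the 3 pairs). Time and the separate normalisation of the pairs enter these correlations, so they cannot show that the samples were paired biologically. The numbers were taken to pair the arrays. Blocked values stand beside the results. Alternatives were another normalisation, other filters, no trend, gene means and leaving out each array. The planned description of promoters and proteins was not made. The number of arrays limits the precision.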

Additional observations from a re-analysis of the deposited data

Results flagged for a closer look

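ALDH2C4 was flagged because its single early pair and both later pairs differed in opposite directions. It was higher with estradiol at 3 h, with a difference of 0.40, and lower in both 5 h pairs, with −0.21 and −0.16. The share of all probe sets with this pattern is not given here. The interaction value was −0.585 (limma adjusted p = 1; 0.988 with the pair as a block), so the difference between times did not pass. It lay between −0.62 and −0.55 without each 5 h array in turn. The 3 h value rests on 1 array per treatment.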

How the results depend on the processing

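Under the alternatives of the 3 fits that kept all arrays, 0 members passed. The smallest limma adjusted p of a member was 0.50, with the replicate block over both times. Calls were nearly absent over all probe sets too, at 0.0071%, 0.00689% and 0% in the 3 main fits. These counts therefore cannot show that the results are stable. The replicate block changed no call of a member, but 0% of all probe sets were called with it in each comparison. The members with a negative difference numbered 6 at 5 h, 5 over both times and 7 between times, and stayed within 1 of these counts, while those at 3 h numbered 6, and 4 after either rescaling. Of all probe sets above the filter as deposited, 50.1% were lower at 3 h and 54.3% by the mean of the 3 pairs. The shares for the 5 h fit and between times are not given here. The count of members lower in 3 of 3 pairs, 5 as deposited, was 3 after quantile normalisation and 3 with arrays centred on their medians. Without the 3 h pair 6 members were lower in both remaining pairs, without replicate 1 at 5 h 6, and without replicate 2 at 5 h 5. These recounts were chosen after seeing the data. The share of all probe sets lower in 2 of 2 pairs is not given here, and 2 pairs share a direction more readily than 3. Of 279 recomputed fitted values 15 changed sign, none past a threshold. The block, the filters, leaving out the trend and the gene means cannot move the fitted value of a member. Values from those settings count among the 279 but could not change sign, so the share that changed understates the sensitivity. Of 18 recomputed 3 h values 2 changed sign, from −0.01 as deposited to 0.01 for ALDH6B2 and 0.03 for ALDH10A9 after quantile normalisation, and 2 became 0 after centring, for the same genes. ALDH10A8 between times was −0.0071 after quantile normalisation, against 0.03. The other 14 fitted values came from leaving out 1 array, which leaves a pair with a single array. There ALDH10A8 ran from −0.115 to 0.275 at 5 h, from −0.0443 to 0.1786 over both times and from −0.165 to 0.225 between times. ALDH11A3 ran from −0.05 to 0.23 at 5 h and from −0.0671 to 0.0929 over both times, and ALDH2C4 from −0.185 to 0.0857 over both times. Between times ALDH7B4 ran from −0.105 to 0.085, ALDH3F1 from −0.34 to 0.01 and PDC2 from −0.745 to 0.055. PDC2 kept its sign at 5 h (−1.105 to −0.305) and over both times (−0.7857 to −0.3286), as did ALDH3F1 (0.03 to 0.38 and 0.1757 to 0.3757). ALDH6B2, ALDH7B4, ALDH10A9 and ALDH22A1 also kept theirs at 5 h and over both times, and ALDH2C4 at 5 h. The deposited values give no measure of background.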

Other observations

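A probe set that the annotation assigns jointly to 2 genes of the pyruvate decarboxylase family, and to which no single gene name is given here, had 5.05 with estradiol and 5.07 with DMSO at 3 h. At 5 h it had 3.67 and 4.93 with estradiol, against 3.87 and 4.74 with DMSO. Its differences of −0.02, −0.20 and 0.19 had no common sign, where those of PDC2 were −0.36, −0.60 and −0.81. The values lie closer to the lowest array values of 2.1 to 2.16 than those of any member.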
